A study of Mus musculus with 3 samples.

Results

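The secretory immunoglobulin A (IgA) route of the mouse lacrimal gland (LG) was followed through 5 of the 32285 genes counted in each library. They were taken by name: *Pigr*, the polymeric immunoglobulin receptor; *Igha*, the constant region of the IgA heavy chain; *Igkc*, the constant region of the kappa light chain; *Jchain*, the joining chain; and *Mzb1*, a chaperone of the endoplasmic reticulum in B cells and plasma cells. Droplet single-cell RNA sequencing of dissociated LGs gave 3 libraries, each from 6 glands of 3 C57BL/6J mice aged 2 months that were pooled before capture, so that the mouse a barcode came from was not known. There was 1 female library and 2 male libraries, with no treatment in either group. The female library was prepared at another core and on another day than both male libraries, so the effects of sex cannot be told apart from those of the core or the day, and the sexes were not tested against each other. Values that follow each other without further labels are in the order of the female library (female), the first male library (male 1) and the second (male 2). All counts are unique molecular identifiers (UMIs), each one a captured transcript read from its 3′ end.

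In mucosal tissues, plasma cells secrete IgA as dimers held together by the J chain. The polymeric immunoglobulin receptor binds these dimers at the basolateral face of epithelial cells, carries them through the cell in vesicles and is cleaved at the apical face, which releases secretory IgA into the fluid. In the LG that fluid is the tear film, where IgA is a main antibody of the ocular surface. A plasma cell and its progeny share the rearranged V segments of their heavy and light chains, whereas the constant regions are the same in every cell of an isotype.

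Of the V segments, 4 recur in the results on single barcodes and on free RNA and are shown for that reason. They are the last bases of the germline V exon in GRCm38, 5′ to 3′ on the coding strand. Capitals mark the bases that end with the codon of the conserved second cysteine, a landmark of V segments. *Ighv3-5* (chr12:114262652-114262950, minus strand) led the heavy chain reads of every *Igha*-rich barcode of the female library. *Igkv3-2* (chr6:70698768-70699067, plus strand) and *Igkv1-135* (chr6:67610209-67610508, plus strand) led their kappa V reads. *Igkv14-111* (chr6:68256572-68256869, plus strand) led in both male libraries among barcodes that held 500 UMIs or more but were not called as cells. It had 6 of 6 and 5 of 9 kappa V reads there.
Ighv3-5: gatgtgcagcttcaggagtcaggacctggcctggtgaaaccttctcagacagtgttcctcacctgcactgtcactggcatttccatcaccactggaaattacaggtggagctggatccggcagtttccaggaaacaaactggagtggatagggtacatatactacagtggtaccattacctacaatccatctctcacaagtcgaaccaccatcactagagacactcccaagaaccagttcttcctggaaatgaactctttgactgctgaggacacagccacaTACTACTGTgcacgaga
Igkv3-2: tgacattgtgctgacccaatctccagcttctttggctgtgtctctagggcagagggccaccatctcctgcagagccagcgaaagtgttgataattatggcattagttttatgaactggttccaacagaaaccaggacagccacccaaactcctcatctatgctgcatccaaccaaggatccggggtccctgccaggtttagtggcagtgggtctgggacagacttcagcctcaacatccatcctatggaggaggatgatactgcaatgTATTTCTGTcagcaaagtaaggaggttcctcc
Igkv1-135: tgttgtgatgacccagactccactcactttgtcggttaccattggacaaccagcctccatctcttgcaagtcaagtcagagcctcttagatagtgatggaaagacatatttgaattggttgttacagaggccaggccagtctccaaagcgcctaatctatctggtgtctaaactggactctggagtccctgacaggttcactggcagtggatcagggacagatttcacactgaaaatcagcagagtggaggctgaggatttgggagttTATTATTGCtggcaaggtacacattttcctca
Igkv14-111: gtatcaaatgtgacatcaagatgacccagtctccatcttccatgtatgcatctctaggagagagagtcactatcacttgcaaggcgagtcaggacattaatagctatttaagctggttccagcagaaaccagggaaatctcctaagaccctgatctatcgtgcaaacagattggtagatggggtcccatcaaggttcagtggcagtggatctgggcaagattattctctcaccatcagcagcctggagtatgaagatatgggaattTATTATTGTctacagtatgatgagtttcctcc

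The 5 genes lie on 5 chromosomes of GRCm38. *Pigr* (ENSMUSG00000026417) is at chr1:130826684-130852249 on the plus strand. *Igha* (ENSMUSG00000095079) is at chr12:113254830-113260236 on the minus strand and *Igkc* (ENSMUSG00000076609) at chr6:70726435-70726966 on the plus strand. *Jchain* (ENSMUSG00000067149) is at chr5:88519809-88527891 and *Mzb1* (ENSMUSG00000024353) at chr18:35647267-35649367, both on the minus strand. *Igha* and *Igkc* are constant gene segments, and a mature transcript joins them to V segments such as those above, which lie elsewhere on their chromosomes.

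After filters and doublet removal, 7652, 5295 and 5397 cells were kept, and their UMIs came to 55375501, 37754290 and 41316199. Their median was 3254, 1885 and 1789 UMIs per cell, so the female library was the deeper one. The libraries shared 12 to 18 called barcodes with each other. Cells were clustered without the 5 genes and without any immunoglobulin gene, and classes were called "-like" from marker genes other than these. The acinar-like cells comprised a main class (604, 1301 and 1670 cells), a Car6hi class and a Tfrchi class. The Car6hi cluster also had *Rgs1*, *H2-Ab1* and *Cd74*, genes of immune cells, among its leading genes. The unnamed clusters, with 108 to 213 epithelial and 45 to 161 immune cells a library, entered no comparison.

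The receptor was an acinar transcript in these libraries. *Pigr* had 125, 78.6 and 74.7 counts per 1000000 UMIs (CPM) in all acinar-like cells, a mean of 92.7 ± 27.8 (SD, n = 3 libraries). In duct-like cells it had 35.9, 20.7 and 14.6 CPM (23.8 ± 11), and in myoepithelial cell (MEC)-like cells 39.3, 21.9 and 19.6 CPM (26.9 ± 10.8). Within each library the acinar-like level was above both, with no overlap between the acinar-like values and those of the ducts or MECs. The Ltf+-like class, epithelial cells that carry lactotransferrin, lay between them with 99.6, 42.4 and 52.6 CPM (64.8 ± 30.5), and its female value exceeded the acinar-like values of both male libraries.

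Among epithelial classes, the highest level relative to all UMIs was that of the Tfrchi class, with 242, 133 and 125 CPM (167 ± 65.4). It was followed by the main acinar class (92.1 ± 27.8) and the Car6hi class (90.8 ± 21.2), which differed by less than their SDs. Outside the epithelium the mean levels were 55 ± 49.3 CPM in migratory DC-like, 54.7 ± 20.6 in ILC-like, 50.7 ± 17.6 in endothelial-like, 47.1 ± 23.6 in NK-like and 40.8 ± 6.01 in T-like cells. They went on with 34.9 ± 6.89 in mural-like, 32.1 ± 13.9 in cDC2-like, 31.4 ± 8.84 in macrophage-like, 24.8 ± 11.5 in fibroblast-like, 19.8 ± 0.351 in mast-like and 9.59 ± 16.6 in cDC1-like cells. In the order of all classes, each neighbouring pair below the Tfrchi class differed by less than the larger of their SDs.

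**Figure D1:**
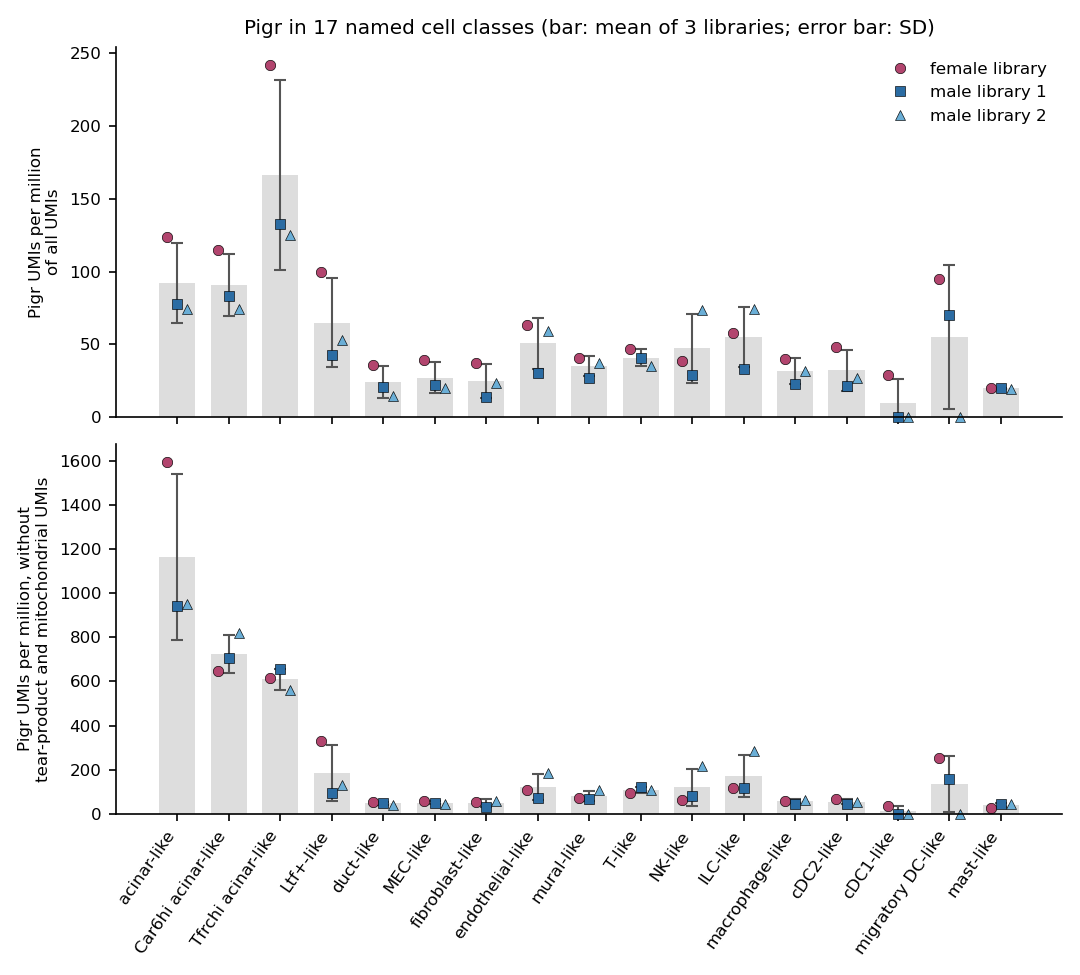
*Pigr* in each named class, as CPM of all UMIs (upper panel) and as CPM of the UMIs left after tear-product and mitochondrial genes are taken out (lower panel). Bars are means of 3 libraries, error bars SDs and symbols single libraries. The acinar-like classes lead in both panels, and the Tfrchi class leads the upper panel (167 CPM) but not the lower one, where the main acinar class has 1162.

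The scale mattered, because transcripts of tear products filled most of an acinar cell's library. They took 90.9, 90.4 and 91.1% of the UMIs of the main acinar class, 56.9, 74.7 and 73.2% in the Tfrchi class and 28.4, 55.1 and 61.3% in duct-like cells. Relative to the UMIs left once tear-product and mitochondrial genes were taken out, *Pigr* reached 1162 ± 375 CPM in the main acinar class, 723 ± 87.0 in the Car6hi class and 611 ± 47.4 in the Tfrchi class. The same measure gave 185 ± 126 in Ltf+-like, 46.9 ± 6.48 in duct-like, 50.2 ± 7.06 in MEC-like and 48.2 ± 16.9 in fibroblast-like cells. On this scale the duct-like and MEC-like levels differed from that of fibroblast-like cells by less than their SDs.

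The share of cells with at least 1 *Pigr* UMI was likewise higher in acinar-like than in duct-like cells. After each cell was thinned to 1000 UMIs, 12.9, 11.8 and 10.7% of acinar-like cells had one (994, 1650 and 2028 cells, with 25, 4 and 75 shallower cells left out). In duct-like cells the share was 2.87, 1.88 and 0.826%, and in fibroblast-like cells, which are not known for this receptor, 3.43, 1.85 and 1.80%. The exact binomial 95% intervals of duct-like and fibroblast-like cells overlapped in every library, so a ductal share above that of fibroblast-like cells was not detectable at this depth. Before thinning the shares were 51.7, 60.4 and 54.3% of acinar-like cells at median depths of 4260, 6648 and 7775 UMIs, and 10.7, 2.23 and 3.11% of fibroblast-like cells at 3117, 1529 and 1251.5 UMIs.

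The test across all genes called *Pigr* higher in epithelial-like than in other cells, with a log2 fold change of 3.08 (SE 0.19, edgeR's quasi-likelihood test, Benjamini-Hochberg adjusted p = 6.23e-05, higher in 3 of 3 libraries). Of the 14226 genes tested, 22.9% were called higher and 27.7% lower. The normalisation (TMM) sets the median gene near 0, whereas on total UMIs the median of all genes was -1.80, and 4.72% of genes were called higher and 80.0% lower. There the *Pigr* fold change was 1.32, still called higher (adjusted p = 0.00104).

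Acinar-like against other epithelial-like cells gave a log2 fold change of 3.81 for *Pigr* (SE 0.23, edgeR, adjusted p = 1.52e-04), where 22.3% of 12264 genes were called higher and 25.0% lower. On total UMIs, where the median gene was at -2.66 and 1.12% of genes were called higher, *Pigr* remained called at 1.21 (adjusted p = 7.23e-05). Duct-like cells stood lower than the rest of the epithelium by a log2 fold change of -4.22 (SE 0.20, edgeR, adjusted p = 5.56e-12, 20.2% of genes called lower and 15.2% higher). MEC-like cells stood at -3.96 (SE 0.23, edgeR, adjusted p = 5.33e-06, 15.9% of genes called lower and 12.7% higher). On total UMIs, where 1.95% of genes were called lower and 85.0% higher in duct-like cells and 1.88% and 75.1% in MEC-like cells, both kept their direction and call, with -1.91 and -1.71.

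In Ltf+-like cells *Pigr* was lower at -2.12 (SE 0.38, edgeR, adjusted p = 0.00397, 7.63% of genes called lower and 6.06% higher), but at -0.49 on total UMIs it did not pass (adjusted p = 0.407). Car6hi-like against other acinar-like cells gave -0.65 (SE 0.23, edgeR, adjusted p = 0.207) and was not called, where 2.18% of genes were called higher and 0.116% lower. For the Tfrchi class the direction turned with the scaling: *Pigr* was lower at -1.44 relative to the median gene (SE 0.33, edgeR, adjusted p = 9.23e-05, 19.1% of genes called lower and 10.8% higher) and higher at 0.84 on total UMIs (adjusted p = 0.00550, 57.4% of genes called higher and 0.243% lower).

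Part of the *Pigr* read in a cell can come as free RNA, transcripts that had left their cell before capture. Uncalled barcodes with 500 UMIs or more, a bin chosen after the data were seen, numbered 70231, 61856 and 58199 and spent 90.5, 92.2 and 91.9% of all UMIs on tear-product transcripts. Their *Pigr* level was 90.8, 30.4 and 38.7 CPM, or 100, 33.0 and 42.1 CPM when only tear-product UMIs are the total. With that ratio and a class's own tear-product UMIs, a number of *Pigr* UMIs was reckoned for the case that all of its tear-product RNA were free RNA. Acinar cells also make tear-product RNA of their own, so there the comparison asks only how high *Pigr* stands beside it.

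The Tfrchi class held 4.24, 5.41 and 4.06 times that number, with exact Poisson 95% intervals of 3.18 to 5.55, 3.9 to 7.32 and 2.90 to 5.52. The main acinar class held 1.36, 2.61 and 1.94 times, and Ltf+-like cells 1.49, 2.51 and 2.23 times. Each of these values had an interval above 1, in every library. They hold for that bin only. In uncalled barcodes with 10 to 100 UMIs the ratio of *Pigr* to tear-product UMIs was higher, at 165, 81.3 and 115 CPM of tear-product UMIs, though it rests on 9, 16 and 17 *Pigr* UMIs. Set against that ratio, the main acinar class held 0.829, 1.06 and 0.707 times the number and Ltf+-like cells 0.904, 1.02 and 0.815 times, all with intervals that included 1 (exact, from both counts). The Tfrchi class then held 2.58 (1.26 to 5.96), 2.20 (1.21 to 4.19) and 1.48 (0.821 to 2.79) times, so that 2 of its 3 intervals were above 1.

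With the bin of 500 UMIs or more, duct-like cells held 1.26 (1.06 to 1.48), 1.14 (0.591 to 2.00) and 0.569 (0.229 to 1.17) times the number, and fibroblast-like cells 1.19 (1.03 to 1.36), 0.860 and 0.939 times. In both male libraries the ductal and fibroblast intervals thus included 1, and the female values were just above it. Endothelial-like cells stood at 1.64 (1.41 to 1.90), 1.63 (1.02 to 2.47) and 2.11 (1.5 to 2.87) times, above 1 in every library, and all immune-like cells at 1.26 (1.13 to 1.40), 1.40 (1.05 to 1.83) and 1.60 (1.24 to 2.04). Macrophage-like cells of the female library, at 1.33 (1.16 to 1.52), were near its main acinar value of 1.36, so a value above 1 was not particular to the epithelium. With the bin of 10 to 100 UMIs, endothelial-like cells stood at 0.997, 0.660 and 0.767 times. These intervals cover counting error only.

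**Figure D2:**
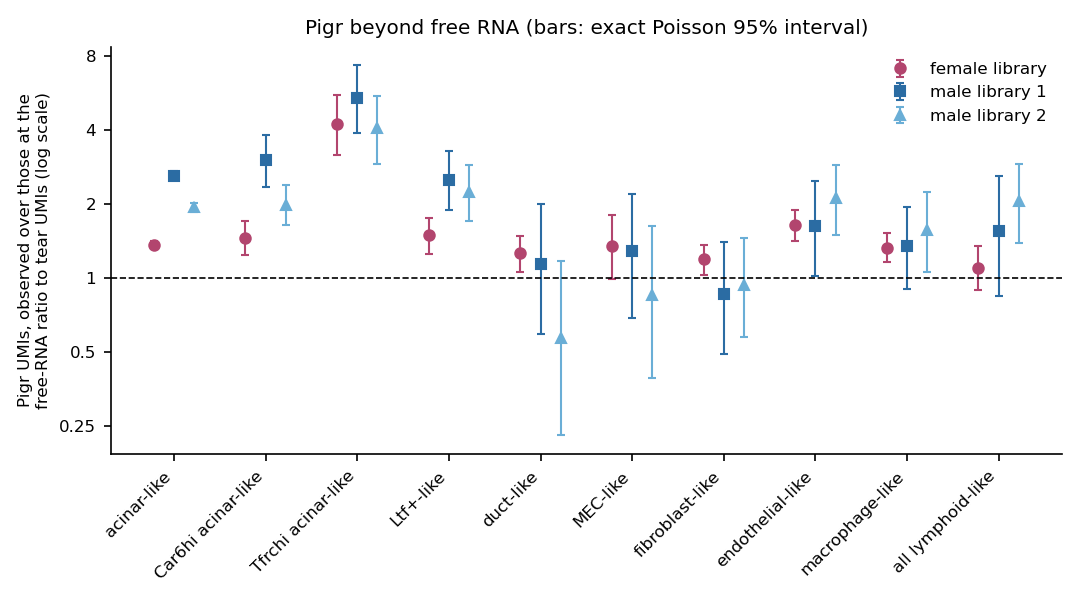
*Pigr* UMIs of 10 classes over the number reckoned at the ratio to tear-product UMIs in uncalled barcodes with 500 UMIs or more, on a log axis, with exact Poisson 95% intervals. The Tfrchi class lies between 4.06 and 5.41 in all 3 libraries, while duct-like cells lie between 0.569 and 1.26, around the dashed line at 1.

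Acinar cells did not carry *Pigr* evenly. Of the clusters with the acinar name, cluster 7 had 290, 267 and 255 CPM (271 ± 17.9) and cluster 1 had 258, 152 and 101 CPM (171 ± 80.3). Cluster 11 had 86.0 ± 10.5, cluster 4 had 60.4 ± 23.1 and cluster 2 had 70.7, 51.9 and 33.4 CPM (52.0 ± 18.7). The values of cluster 7 thus lay above those of cluster 2 by more than 3 times in each library, and the values of the 2 clusters did not overlap. With tear-product and mitochondrial UMIs out of the total, the clusters were closer, with 1974 ± 537 CPM in cluster 7 and 797 ± 292 in cluster 2. The clusters also differed in the median share of mitochondrial UMIs, which is often read as a sign of RNA quality: 7.49% in cluster 7, 4.1% in cluster 1, 0.64% in cluster 11, 0.48% in cluster 4 and 0.28% in cluster 2. Their median depths were 5244, 7476.5, 47130, 41326 and 7655.5 UMIs. The Tfrchi class, at 167 CPM, had a median mitochondrial share of 0.97% and the Car6hi class, at 90.8 CPM, one of 3.91%.

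**Figure D3:**
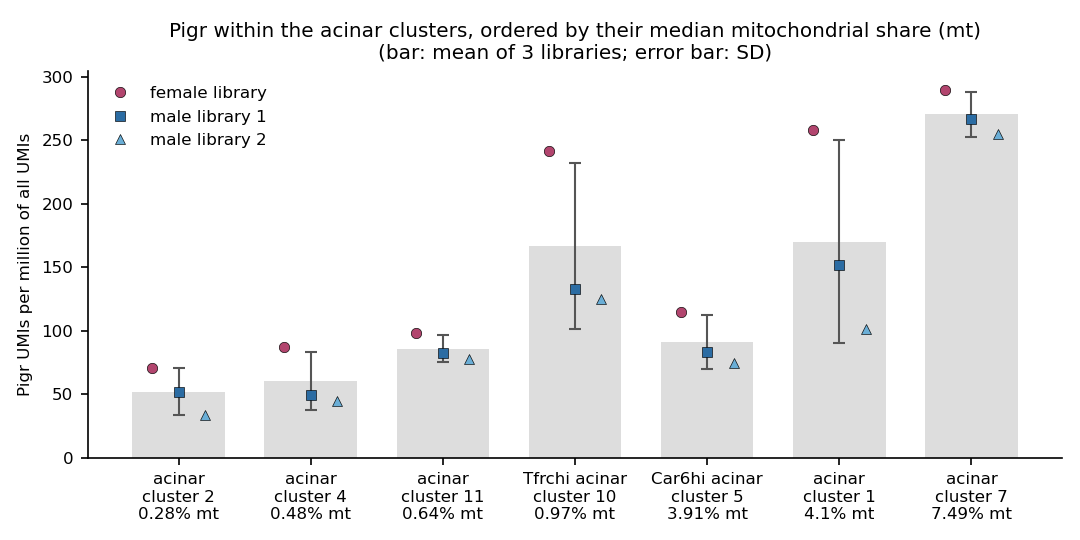
*Pigr* CPM in the 7 acinar-like clusters, ordered from left to right by their median mitochondrial share (mt). Bars are means of 3 libraries, error bars SDs and symbols single libraries. Cluster 7 (271 CPM) and cluster 1 (171 CPM), with the highest mitochondrial shares, stand above clusters 2, 4 and 11. The Tfrchi cluster (0.97% mt, 167 CPM) and the Car6hi cluster (3.91% mt, 90.8 CPM) do not follow that order.

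When acinar-like cells were split at their own library's median mitochondrial share, and mitochondrial genes were left out of the totals, the high group had 270, 208 and 148 CPM of *Pigr* and the low group 98.1, 60.3 and 49.4 CPM. The means were 209 ± 61.3 and 69.3 ± 25.6, with the high group above in 3 of 3 libraries and no overlap. Relative to the median gene the difference did not pass, with a log2 fold change of 0.26 (SE 0.15, edgeR, adjusted p = 0.161, 19.8% of genes called higher and 22.0% lower). On total UMIs, where 81.6% of genes were called higher, 0.749% lower and the median gene stood at 1.47, *Pigr* was at 1.61 (SE 0.14, adjusted p = 1.26e-18). The part of mitochondrial share in the level of *Pigr* was not tested further.

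Genes of the vesicle route that the receptor takes were described beside it. Of 15 genes of transcytosis and apical trafficking, 14 were tested between epithelial-like and other cells, of which 8 were called higher and 1 lower. Their median log2 fold change was 1.14, beside -0.05 over all genes, of which 22.9% were called higher and 27.7% lower. On total UMIs 5 were called higher and 7 lower (4.72 and 80.0% of all genes), with a median of -0.62 beside -1.80 over all genes. *Rab25*, a small GTPase of apical recycling endosomes, had 26.2 ± 5.08 CPM in epithelial-like and 11.7 ± 6.85 CPM in other cells (log2 fold change 3.15, SE 0.32, edgeR, adjusted p = 3.38e-04).

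*Ap1m2*, the epithelial subunit of a sorting adaptor, stood at 5.62 ± 0.426 against 2.09 ± 0.466 CPM. *Myo5b*, a motor of recycling vesicles, stood at 2.37 ± 0.126 against 0.367 ± 0.368 CPM and *Rab17*, a GTPase of polarised epithelia, at 1.91 ± 1.47 against 0.690 ± 0.610 CPM. All 4 were higher in 3 of 3 libraries and remained called on total UMIs. *Rab17* was highest in Ltf+-like cells, with 15.7 ± 3.72 CPM against 1.37 ± 1.35 in the rest of the epithelium (log2 fold change 2.26, edgeR, adjusted p = 5.62e-04). MEC-like cells followed with 10.2 ± 4.35 CPM, and duct-like and acinar-like cells had 2.49 ± 1.03 and 1.07 ± 1.09.

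Inside the epithelium, too, the calls of this list turned with the scaling. Of the 14 genes, 6 were called higher and 1 lower in acinar-like cells relative to the median gene, and 0 higher and 14 lower on total UMIs, where 92.4% of all genes were called lower (22.3% higher and 25.0% lower with TMM). *Rab3d*, a GTPase of secretory granules, had 22.1 ± 3.34 CPM in acinar-like and 33.2 ± 12.3 CPM in other epithelial-like cells, a log2 fold change of 2.06 with TMM and of -0.53 on total UMIs. *Rab27b*, which acts in granule docking, turned likewise from 1.05 to -1.56 and *Myo5b* from 1.14 to -1.48. *Stx3*, an apical target membrane protein of vesicle fusion, was lower under both, at -1.02 and -3.66. With TMM, 1 of 14 was called higher and 5 lower in duct-like cells (15.2 and 20.2% of all genes), and 0 and 5 in MEC-like cells (12.7 and 15.9%). The counts were 1 and 4 in the Tfrchi class (10.8 and 19.1%) and 2 and 5 with high mitochondrial share (19.8 and 22.0%). On total UMIs, where most genes were called higher in each of these, the counts were 11 and 0 in duct-like, 10 and 0 in MEC-like and 9 and 0 in Tfrchi cells and 12 and 0 with high mitochondrial share.

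Receptors and transcription factors known to act upstream of *Pigr* were mostly lower in epithelial-like cells: of 19 tested, 2 were called higher and 14 lower, with a median log2 fold change of -1.43 (22.9 and 27.7% of all genes). On total UMIs, where 80.0% of genes were called lower, they were 0 and 17. *Ifngr1*, a chain of the interferon gamma receptor, had 4.19 ± 3.46 against 96.3 ± 39.6 CPM. *Il4ra*, a chain of the interleukin 4 receptor, had 0.311 ± 0.381 against 23 ± 3.42 CPM.

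Within the epithelium, 3 of 18 were called higher and 8 lower in acinar-like cells (22.3 and 25.0% of all genes), and 0 and 17 on total UMIs (1.12 and 92.4%). *Irf1*, an interferon-responsive factor that can act on the *Pigr* gene, had 2.21 ± 0.442 CPM in acinar-like and 62.4 ± 24.2 CPM in other epithelial-like cells (log2 fold change -2.18, SE 0.20, edgeR, adjusted p = 3.87e-04), with 113 ± 19.7 CPM in duct-like cells. The class with the lower receptor level thus had the higher *Irf1* level. In the acinar-like cells of high mitochondrial share 7 of 17 were called higher and 0 lower (19.8 and 22.0% of all genes), *Nfkb1* among them with 11.9 ± 2.16 against 2.10 ± 0.313 CPM. On total UMIs all 17 were called higher, where 81.6% of genes were.

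The genes whose log2 level across 17 classes and 3 libraries (51 points that share libraries, depth and free RNA) was most like that of *Pigr* were *Hp* (Pearson's r = 0.74), *Sval2* (0.72), *Dnase1* (0.71) and *Gm5938* (0.70). They went on with *Derl3* (0.68), *P4hb* (0.68), *Mucl2* (0.66), *Trabd* (0.65), *Tfrc* (0.64) and *Etv1* (0.63), out of 3228 genes compared. Of these 10, *Hp*, *Sval2*, *Dnase1*, *Gm5938* and *Mucl2* were in the tear-product list. *Hp*, *Dnase1* and *Tfrc* were also markers by which acinar-like classes were named.

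Transcripts of *Igha*, *Igkc*, *Jchain* and *Mzb1* had another distribution: among called barcodes, nearly all of them sat in a handful. Among the called barcodes that passed the limits on UMIs, genes and mitochondrial share, 22 held 100 or more UMIs of immunoglobulin genes, constant and V segments together. They were 12 of 8298 in the female library, 6 of 5582 in male 1 and 4 of 5712 in male 2. These are shares of 0.145% (exact binomial 95% interval 0.0747 to 0.252), 0.107% (0.0395 to 0.234) and 0.0700% (0.0191 to 0.179). The limit of 100 was set after the values were seen: the lowest barcode above it had 654 such UMIs and the highest below it 71. The intervals overlap, and with 1 female library no difference between the sexes could be tested.

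These 22 barcodes carried nearly all of the route's plasma cell transcripts. They held 97.5, 97.4 and 97.5% of the *Igha* UMIs of called barcodes, 98.7, 98.7 and 98.3% of those of *Igkc*, 98.4, 98.0 and 97.5% of those of *Jchain* and 98.5, 95.7 and 90.5% of those of *Mzb1*. The barcodes were picked by UMIs of immunoglobulin genes, so the *Igha* and *Igkc* shares follow in part from that choice. *Jchain* and *Mzb1* were not used to pick them. In UMIs, *Igkc* came to 28486, 4306 and 2859, *Igha* to 4418, 984 and 939, *Jchain* to 3803, 586 and 476 and *Mzb1* to 394, 22 and 19. Single barcodes weighed heavily, and the largest one held 15.4, 30.1 and 32.4% of a library's called *Igkc* UMIs. *Pigr*, in contrast, had 5 UMIs in 4 of the 22.

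By heavy chain, 16 of the barcodes were of *Igha* type (7, 5 and 4) and 6 of *Ighm* type, the heavy chain of IgM (5, 1 and 0). *Igha* and *Ighm* hardly mixed: the *Ighm*-type barcodes held 1 *Igha* UMI in all and the *Igha*-type barcodes 0 *Ighm* UMIs. Of the IgG heavy chains, *Ighg2b* had 7 UMIs in 1 *Igha*-type barcode of male 1, and *Ighg2c* had 1 UMI in 1 barcode of male 2. As counted, kappa took 98.5% of the UMIs of light chain constant genes, 35651 of *Igkc* against 529 of *Iglc1*, *Iglc2* and *Iglc3*. For every 100 *Igkc* UMIs the *Igha*-type barcodes held 15.3 to 76.4 *Igha* UMIs, with a median of 23.2. *Jchain* was present in all 22, at 4.80 to 29.9 UMIs for every 100 of *Igkc*, and *Mzb1* in 21.

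The largest barcode, in the female library, held 20503 UMIs, with 4444 of *Igkc*, 876 of *Igha*, 571 of *Jchain* and 28 of *Mzb1*. Immunoglobulin genes, V segments included, took 16.1 to 42.9% of the UMIs of these barcodes in the female library, 22.7 to 41.9% in male 1 and 22.5 to 37.0% in male 2. Their median depth was 10404.5, 2457 and 2920.5 UMIs, above the median of kept cells in each library. That depth includes the immunoglobulin UMIs by which the barcodes were picked, so it is not a like comparison.

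**Figure D4:**
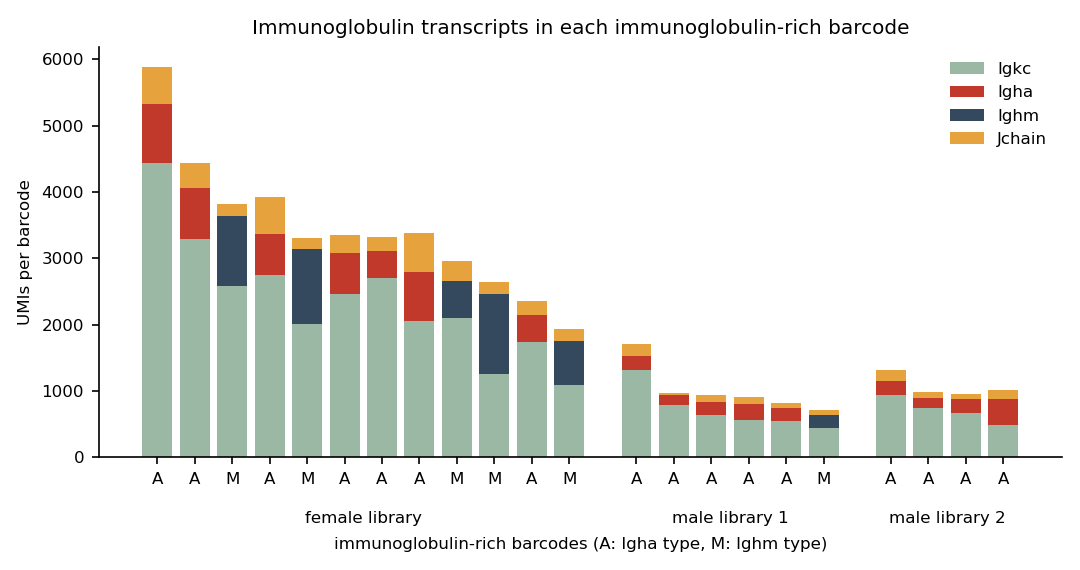
UMIs of *Igkc*, *Igha*, *Ighm* and *Jchain*, stacked, in each of the 22 immunoglobulin-rich barcodes, grouped by library and marked A for *Igha* type and M for *Ighm* type. Each barcode has 1 heavy chain colour, and the female barcodes are taller than those of both male libraries.

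Other genes of plasma cells were found in them as well. *Txndc5*, a disulphide isomerase of secretory cells, had a UMI in 21 of 22 and *Xbp1*, the factor that builds the secretory apparatus, in 17. *Tnfrsf17*, the survival receptor BCMA, was found in 16, *Pou2af1*, a B-lineage coactivator, in 14 and *Ccr10*, the receptor of the mucosal chemokine CCL28, in 12. Of the 5 plasma cell markers listed (*Tnfrsf17*, *Derl3*, *Pou2af1*, *Ccr10* and *Prdm1*), 20 barcodes held at least 1 and 11 held 3 or more. Of these 11, 10 were in the female library, whose barcodes were deeper, and 1 was in male 1. *Derl3* and *Prdm1* were each found in 7. In all other immune-like cells together *Tnfrsf17* had 0, 1 and 1 UMIs, *Pou2af1* 1, 0 and 0 and *Ccr10* 2, 0 and 1. The remaining genes were common there: *Derl3* had 109, 39 and 38 UMIs, *Prdm1* 150, 33 and 23, *Xbp1* 629, 122 and 109 and *Txndc5* 191, 38 and 38. Relative to all UMIs, *Xbp1* and *Txndc5* were higher in the rich barcodes in every library. *Derl3* and *Prdm1* were higher there in the female library and male 1. In male 2 the rich barcodes had 0 CPM of both, against 20.7 and 12.6 in other immune-like cells. Of the B cell markers, *Ms4a1* was found in 1 of the 22, *Pax5* in 0 and *Cd79a* in 13.

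Immunoglobulin genes were left out of the clustering, and these barcodes formed no cluster of their own. In the female library 4 lay in the mast-like cluster, 2 in an unnamed myeloid cluster, 1 in an ILC-like and 1 in an unnamed lymphoid cluster. The other 4, all of *Ighm* type, had been removed by their doublet score. In male 1, 3 lay with ILC-like cells, 2 with the Car6hi class and 1 with T-like cells. In male 2, 1 each lay with ILC-like, cDC2-like and fibroblast-like cells and with an unnamed lymphoid cluster. The class names were not read as the identity of these barcodes.

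Some of the barcodes shared their leading V segments and others differed in them, within the limits of a family of similar segments read from the 3′ end. All 7 *Igha*-type barcodes of the female library had *Ighv3-5*, the first sequence above, as their leading heavy V segment, with 7, 4, 4, 14, 3, 2 and 2 UMIs. In 6 of the 7, *Igkv3-2* led the kappa V segments, with 15, 15, 23, 13, 11 and 9 UMIs, and in the remaining one *Igkv1-135* led with 10 of 15. The lambda V segment *Iglv1* was read in these 7 barcodes too, with 57, 19, 12, 16, 3, 24 and 11 UMIs, although kappa led their constant genes. None of the 5 female *Ighm*-type barcodes had *Ighv3-5* as leading segment. They had *Ighv1-36* with *Igkv5-43*, *Ighv3-6* with *Igkv12-41*, *Ighv1-69* with *Igkv4-61* and, in 2 barcodes, *Ighv1-50* with *Igkv4-70*.

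In the male libraries the 9 *Igha*-type barcodes had 9 different leading kappa V segments. A heavy V segment was read in 5 of them, and *Ighv3-5* in 0. Of those 5, 2 had *Ighv3-6*, 1 in each male library. *Igkv3-2* led in 1 barcode of male 2, on 1 UMI. These male calls rest on 1 to 10 UMIs of a leading kappa segment. Within a library, any pair of these barcodes differed at 5 or more positions, more than a single misread base would give.

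The tests on sums followed these few barcodes. In immune-like cells *Igha* had 298, 268 and 322 CPM (296 ± 26.9), against 2.68, 2.58 and 91.7 CPM (32.3 ± 51.4) in other non-epithelial cells. The log2 fold change was 4.94 (SE 0.75, edgeR, adjusted p = 3.33e-05), where 28.0% of 9800 genes were called higher and 28.7% lower. The high stromal value of male 2 came from its 1 immunoglobulin-rich barcode in a fibroblast-like cluster.

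*Igkc* had 1756, 1142 and 788 CPM in immune-like cells against 5.70, 3.62 and 468 CPM (log2 fold change 6.35, SE 1.35, edgeR, adjusted p = 7.87e-04). *Jchain* stood at 189 ± 43.0 against 19.3 ± 31.0 CPM (4.86, SE 0.80, adjusted p = 7.27e-05). *Mzb1* stood at 24.2, 9.34 and 3.81 CPM against 0, 0 and 4.34 CPM (5.14, SE 0.91, adjusted p = 1.49e-04), so that it was higher in 2 of 3 libraries.

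Without the immunoglobulin-rich barcodes little was left to test, which for *Igha* and *Igkc* follows in part from how those barcodes were picked. *Igkc* was then at 8.59, 3.28 and 5.46 CPM in immune-like cells, from 67, 7 and 10 UMIs, with a log2 fold change of 0.84 over other non-epithelial cells (SE 0.35, edgeR, adjusted p = 0.0482, where 28.1% of genes were called higher and 28.9% lower). *Igha* had 24, 3 and 5 UMIs left in immune-like cells, *Jchain* 18, 2 and 0 and *Mzb1* 2, 0 and 0, too few to enter the fit. The fit without them was added after the data were seen.

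The same held between epithelial-like and other cells. All 4 transcripts were called lower in the epithelium, with log2 fold changes of -4.63 for *Igha*, -5.54 for *Igkc* and -4.47 for *Jchain* (edgeR, adjusted p = 0.0116, 0.0166 and 0.0102). For *Mzb1* the epithelium held 1, 3 and 0 UMIs against 190, 20 and 14 (adjusted p = 7.10e-04). With the doublet rate doubled, *Igha*, *Igkc* and *Jchain* were not called, at -2.50, -2.25 and -2.37 (edgeR, adjusted p = 0.139, 0.247 and 0.133). Without the library term, *Igha* and *Igkc* were not called either (adjusted p = 0.0603 and 0.107). Without the immunoglobulin-rich barcodes the values were -0.15, -0.26 and 0.33, none of them called (adjusted p = 0.779, 0.632 and 0.735), and *Mzb1* was not testable. Since those barcodes were picked by immunoglobulin UMIs, the lost calls of *Igha* and *Igkc* were set in part by that choice.

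Inside the epithelium *Igha*, *Igkc* and *Jchain* passed a test in several comparisons, and the epithelium held 2 immunoglobulin-rich barcodes, both in the Car6hi class of male 1. *Igha* was called higher in acinar-like than in other epithelial-like cells at 2.86 and *Jchain* at 2.98 (edgeR, adjusted p = 0.0361 and 0.0388). In the Car6hi class *Igha* had 2.96, 507 and 0 CPM. Without those barcodes its 413 UMIs in male 1 became 0, and *Igha*, *Igkc* and *Jchain* were not called in any of the 7 comparisons inside the epithelium where they could still be tested. The main acinar class, which carries the receptor, had 0.469, 0.317 and 0.328 CPM of *Igha* and 0, 0 and 0 UMIs of *Mzb1*, which allows up to 3 UMIs in each library's sum.

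Lymphoid-like against myeloid-like cells gave no call for the plasma cell transcripts, with log2 fold changes of 2.82 for *Igha*, 1.87 for *Igkc*, 1.96 for *Jchain* and 1.47 for *Mzb1* (edgeR, adjusted p = 0.0876, 0.324, 0.256 and 0.167), where 14.5% of 7497 genes were called higher and 19.0% lower. The libraries went different ways, with the cluster in which the rich barcodes lay: *Igkc* had 1414, 5970 and 948 CPM in lymphoid-like and 1867, 2.88 and 724 CPM in myeloid-like cells. *Pigr* was called higher in lymphoid-like cells at 0.80 (SE 0.25, adjusted p = 0.0244), but not on total UMIs (0.59, adjusted p = 0.130), and its lymphoid-like level of 47.3 ± 12.4 CPM was below that of acinar-like cells. Between immune-like and other non-epithelial cells *Pigr* was not called, at 0.42 with TMM (adjusted p = 0.0554) and -0.0027 on total UMIs.

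Of the other immunoglobulin constant genes, 3 of 10 could be tested between immune-like and other non-epithelial cells, and all 3 were called higher (28.0% of all genes). *Ighm* had 129 ± 78.1 against 0.922 ± 0.615 CPM (log2 fold change 7.56, SE 0.27, edgeR, adjusted p = 1.68e-12). *Ighm* was also found outside the rich barcodes, with 1271, 115 and 96 UMIs in 888, 99 and 87 called barcodes. It was read in 33.2, 6.85 and 6.4% of the other immune-like cells. Of the B cell genes, called barcodes outside the rich ones held 14, 2 and 0 UMIs of *Cd79a*, 7, 2 and 1 of *Ms4a1* and 95, 10 and 7 of *Cd79b*, the last in 83, 9 and 7 barcodes.

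Of the B and plasma cell list, 9 genes were tested in the same comparison, with 3 called higher and 3 lower (28.0 and 28.7% of all genes) and a median of -0.01. *Tnfrsf13b*, the receptor TACI, had 16.1 ± 7.53 CPM in immune-like cells and 0 in other non-epithelial cells, and *Irf4*, a factor of plasma cell differentiation, 6.78 ± 1.80 against 0.595 ± 0.582 CPM. *Sdc1*, the plasma cell surface marker CD138, went the other way in these sums, with 3.64 ± 0.870 against 24.5 ± 9.30 CPM, and it had 88.0 ± 34.5 CPM in duct-like cells. Of the 22 immunoglobulin-rich barcodes, however, 14 held *Sdc1*, at 166, 58.6 and 81.7 CPM. Other immune-like cells had 3.46, 3.28 and 2.73 CPM of it. Several members of that list serve protein secretion in any cell. In acinar-like against other epithelial-like cells, 5 of 7 tested were called higher and 1 lower, where 22.3% of all genes were called higher. On total UMIs 2 were called higher and 3 lower (1.12 and 92.4% of all genes). *Derl3*, a factor of endoplasmic reticulum quality control, had 37.9 ± 4.41 against 19.8 ± 5.17 CPM (log2 fold change 3.57, edgeR, adjusted p = 3.20e-04) and *Fkbp11* 79.4 ± 21.1 against 49.3 ± 20.0 CPM (3.34), both also called higher on total UMIs.

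The factors that attract plasma cells or keep them alive were spread over other classes. *Ccl28*, a mucosal chemokine for IgA plasma cells, was highest relative to all UMIs in Ltf+-like cells, with 41.1 ± 19.0 CPM there, 14.4 ± 4.29 in acinar-like, 13.1 ± 7.26 in duct-like and 5.98 ± 2.40 in MEC-like cells. With TMM, 0 of the 5 listed factors tested were called higher in Ltf+-like than in other epithelial-like cells (6.06% of all genes). On total UMIs 1 was, where 5400 genes were called higher. It was called lower in MEC-like than in other epithelial-like cells with either scaling (log2 fold changes -3.65 and -1.39, edgeR, adjusted p = 4.06e-05 and 0.00537). In acinar-like cells its sign turned, from 1.85 with TMM to -0.74 on total UMIs. It was also found outside the epithelium, with 7.90 ± 4.32 CPM in fibroblast-like, 8.21 ± 4.27 in myeloid-like and 7.33 ± 5.51 in lymphoid-like cells.

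*Cxcl12*, which holds plasma cells in their niche, stood at 1351 ± 567 CPM in endothelial-like, 921 ± 550 in fibroblast-like and 166 ± 32.9 in mural-like cells. *Cxcl13*, the B cell chemokine, stood at 140 ± 76.5 CPM in fibroblast-like cells and at 0 in endothelial-like and mural-like cells. In immune-like against other non-epithelial cells both were called lower, with log2 fold changes of -8.05 and -7.38. Of the 9 listed factors tested, 4 were called higher and 3 lower (28.0 and 28.7% of all genes).

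*Tnfsf13b*, the survival factor BAFF, had 37.0 ± 25.7 CPM in myeloid-like, 25.8 ± 4.59 in fibroblast-like and 0 in lymphoid-like cells. *Tnfsf13*, its relative APRIL, was found in every class, between 6.43 and 21.1 CPM. *Il5* had 51.6 ± 40.5 CPM in lymphoid-like cells against 0.254 in myeloid-like cells, and *Il10*, in the opposite direction, 1.80 against 36.5 ± 29.4 CPM. *Il6*, a plasma cell growth factor, had 102 ± 84.1 CPM in mural-like and 55.2 ± 29.8 in fibroblast-like cells. Between epithelial-like and other cells, 2 of 10 factors tested were called higher and 7 lower (22.9 and 27.7% of all genes). Their median was -6.31, beside -0.05 over all genes.

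As free RNA, the immunoglobulins and the receptor parted by the depth of the barcodes. In uncalled barcodes with 10 to 100 UMIs, *Igkc* had 88.2, 3332 and 2609 CPM, from 6, 772 and 451 UMIs, against 394, 115 and 70.2 CPM in kept cells. The log2 fold change was 3.21 (SE 0.38, edgeR, adjusted p = 3.25e-14), with *Igha* at 2.22 and *Jchain* at 2.86 (adjusted p = 1.28e-09 and 1.13e-15). With DESeq2 neither *Igha* nor *Jchain* was called (adjusted p = 0.160 and 1.000), nor without the library term in edgeR (0.617 for both), and without male 1 *Igha* was not called (1.51, edgeR, adjusted p = 0.103). This class of barcodes was small, with 67990, 231705 and 172853 UMIs in all, and 0.144% of 11766 genes were called higher and 0.569% lower. *Igkc* was higher there than in kept cells in both male libraries and lower in the female library, 88.2 against 394 CPM. Without the immunoglobulin-rich barcodes, kept cells had 4.58, 1.09 and 0.968 CPM of *Igkc*, so that the female library was higher in free RNA as well, and the log2 fold changes were 9.46 for *Igkc*, 7.67 for *Igha* and 8.35 for *Jchain*, all called (edgeR). Relative to all genes, whose median stood at -0.90, *Pigr* was not called at -0.06 (adjusted p = 0.953).

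The other genes called higher there were immunoglobulins in the main. Of the 10 with the largest fold change, *Ighg1*, *Ighg2c*, *Ighg2b*, *Iglc1*, *Iglc3*, *Ighm* and *Iglc2* were constant genes, and *BC048679*, *Obp1b* and *Asgr1* were not. All 7 of the other constant genes tested were called higher (0.144% of all genes). In the female library this range held only 8 immunoglobulin UMIs, 6 of *Igkc*, 1 of *Igha* and 1 of *Ighm*. The IgG and lambda reads of this range thus came from the male libraries alone. *Ighg1*, *Ighg2b* and *Ighg2c* are IgG heavy chains, which had 0, 7 and 1 UMIs in the 22 rich barcodes, so these reads were of another composition than the IgA and IgM of the rich barcodes.

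Uncalled barcodes of fewer than 50 UMIs with 3 or more of *Igkc*, some of them below this range, numbered 2, 214 and 172. Both male libraries shared 83 of these barcodes with each other and 0 with the female library, and they held 930 and 670 UMIs of *Igkc* but 0 of *Pigr* in the male libraries. The part of shared barcodes in the rise was not tested.

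In the deeper uncalled barcodes the picture turned. With 500 UMIs or more, a choice made after the data were seen, *Igkc* had 18.7, 3.91 and 5.62 CPM, below the kept cells in all 3 libraries (log2 fold change -2.36, edgeR, adjusted p = 1.5e-04, where 28.6% of 13642 genes were called higher and 32.4% lower). *Igha* stood at -1.93 and *Jchain* at -1.43. In CPM the direction turned without the immunoglobulin-rich barcodes: kept cells then had *Igkc* at 4.58, 1.09 and 0.968 CPM, below the uncalled barcodes in all 3 libraries, and *Igha* at 1.52, 0.609 and 0.460 against 8.24, 1.49 and 1.19 CPM. *Pigr* went the opposite way, with 1.25 (adjusted p = 0.0208), although its CPM was 90.8, 30.4 and 38.7 against 89.9, 68.9 and 68.2 in kept cells and so lower in both male libraries on total UMIs. In the female 12 of the 15 kappa V reads of these barcodes were *Igkv3-2* and 2 were *Igkv1-135*, the segments of its *Igha*-rich barcodes. In the male libraries *Igkv14-111* gave 6 of 6 and 5 of 9 of them, and it led in 0 of the rich barcodes.

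**Figure D5:**
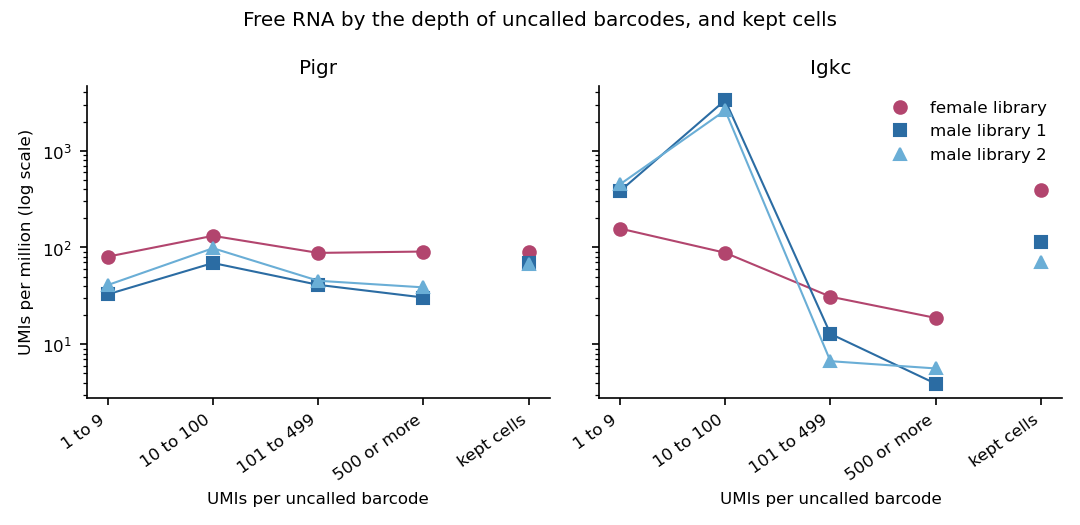
*Pigr* (left) and *Igkc* (right) CPM, on a log axis, in uncalled barcodes binned by their UMIs and in kept cells, for each library. *Igkc* peaks in the bin of 10 to 100 UMIs in both male libraries (3332 and 2609 CPM) and not in the female library (88.2 CPM), whereas *Pigr* differs by less than 3 times between the bins of a library.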

How the data were processed

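RNA of dissociated LGs was captured with 10x Chromium Single Cell 3′ v3.1 reagents after dead cells and red blood cells had been depleted, with no sort. The deposited values are whole UMI counts per gene and barcode, for all barcodes and for called cells. The submitters' processing notes name Cell Ranger 6.1.2 and mm10, which is GRCm38. The authors' own removal of free RNA and doublets is not in these counts.

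Called barcodes with at least 500 UMIs, 200 genes and at most 15% mitochondrial UMIs were kept, and doublets were removed with scanpy 1.11.5 (Scrublet) at 0.8% per 1000 cells. Cells were clustered with Seurat 5.3.0 and sctransform 0.4.2 (3000 features, 30 dimensions, resolution 1), without 707 genes. Among these were the 5 genes, all immunoglobulin genes, tear-product genes and the listed genes that were not naming markers. Of the 20 B and plasma cell genes, 10 were naming markers and could enter the clustering. Clusters got a name where the markers stood at least 0.5 (log2, mean) above the other cells, 3 or more were raised, and no rival name scored over 0.7 of that with as many markers among the top 10 genes. Neither the 5 genes nor immunoglobulin genes named a cluster.

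UMIs were summed per library and class and tested with edgeR 4.0.16 (quasi-likelihood test, TMM, library as a term, Benjamini-Hochberg over all genes tested, call at adjusted p under 0.05) in R 4.3.3. With 3 libraries, 2 arms each, and library as a term, the p-values rest on how the difference between arms varies across libraries of pooled mice. The test shares information on that spread over all genes, so they do not measure the spread of 1 gene alone. CPM are counts per 1000000 UMIs of the class. For the tests, free RNA was taken from uncalled barcodes with 10 to 100 UMIs. For the ratio of *Pigr* to tear-product UMIs it was taken from those with 500 UMIs or more, a choice made after the data were seen, with 10 to 100 UMIs beside it. Intervals are exact at the 95% level and, like the limit of 3 counts for a value of 0, cover counting error only, and totals of 37754290 to 55375501 UMIs a library set that precision. Python 3.11.15, numpy 2.4.6, scipy 1.17.1 and matplotlib 3.10.9 served the rest. The scripts for the tests were tested on simulated data.

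Named in the text are the 5 genes in every comparison, and of each gene list up to 4 genes with the largest log2 fold change among those called. To these were added the 10 genes whose log2(CPM + 10) correlated most with *Pigr* (mean of 20 CPM or more) and the 10 genes with the largest rise in free RNA. The 5 genes and the lists were chosen with earlier results of these data known. Genes named for other reasons (the plasma and B cell markers, V segments and class levels of the attraction factors) come from whole lists or were picked after their values were seen. Coordinates and V exons are from GRCm38 with GENCODE vM21. Alternatives were total UMIs in place of TMM, DESeq2 1.42.0, no filter on low counts, no library term, each library left out, cells under 5% mitochondrial UMIs or above 1000 UMIs, a doubled doublet rate, a resolution of 0.5 and free RNA from 2 to 50 UMIs. Leaving out immunoglobulin-rich barcodes and taking uncalled barcodes with 500 UMIs or more as free RNA were added after the data were seen. The rich barcodes were picked by immunoglobulin UMIs, so any change in *Igha* and *Igkc* without them follows in part from that choice. Some listed genes are not reported here by name.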

Additional observations from a re-analysis of the deposited data

Results flagged for a closer look

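The contrasts of the immunoglobulin genes below went one way in the female library and the other way in both male libraries. These differences were not tested, since there was 1 female library. All values are log2 ratios of CPM in the order female, male 1 and male 2.

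Inside the epithelium, duct-like over other epithelial-like cells gave 1.53, -5.94 and -0.67 for *Igkc* and 1.09, -1.73 and -0.34 for *Jchain*. MEC-like over other epithelial-like cells gave 0.85, -3.87 and -0.47 for *Igha* and 1.44, -3.19 and -0.34 for *Jchain*. For *Igha*, the Tfrchi class over other acinar-like cells gave 2.68, -3.95 and -0.39, and acinar-like cells of high over low mitochondrial share gave 0.89, -3.81 and -0.51. Both immunoglobulin-rich barcodes of the epithelium were in male 1, in the group these contrasts were set against.

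Lymphoid-like over myeloid-like cells gave -0.58, 9.0 and 2.14 for *Igha*, -0.40, 10.59 and 0.39 for *Igkc*, -1.30, 9.04 and 1.15 for *Jchain* and -0.18, 5.64 and 2.05 for *Mzb1*. In male 1 all 4 immune immunoglobulin-rich barcodes lay in lymphoid-like clusters.

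Free RNA (10 to 100 UMIs) over kept cells gave -2.39, 3.43 and 3.40 for *Igha*, -2.15, 4.84 and 5.20 for *Igkc*, -5.86, 4.25 and 3.92 for *Jchain* and -2.66, 3.81 and 2.19 for *Mzb1*. Without the immunoglobulin-rich barcodes, kept cells of the female library had 4.58 CPM of *Igkc*, below the 88.2 CPM of its free RNA. In barcodes that were not called as cells, those with fewer than 50 UMIs and 3 or more *Igkc* UMIs numbered 2, 214 and 172. In both male libraries immunoglobulins took 45.8 and 43.8% of the UMIs of these barcodes and tear-product genes 27.4 and 29.2%. With *Igkc* at 930 and 670 UMIs they held *Ighm* at 91 and 45, *Jchain* at 50 and 32, *Igha* at 40 and 35, *Ighg2b* at 18 and 9 and *Ighg2c* at 12 and 11.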

How the results depend on the processing

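*Pigr* kept its direction and call in epithelial-like (log2 fold change 1.32 to 3.27, all 11 alternatives), acinar-like (1.21 to 4.26, all 12), duct-like (-4.44 to -1.91, all 12) and MEC-like cells (-4.15 to -1.71, all 12). On total UMIs *Pigr* reached 1.61 with high mitochondrial share and lost its call at -0.49 in Ltf+-like cells. It turned to 0.84 in the Tfrchi class, to -0.0027 in immune-like cells and to 0.34 in free RNA, while *Igha* turned to 1.06 and *Jchain* to 0.50 in duct-like cells. With cells under 5% mitochondrial UMIs *Pigr* was not called at -1.47 in Ltf+-like, was called at -0.74 in Car6hi-like cells and was at 0.03 in free RNA. Leaving out each library gave -1.57 to -1.13 for *Pigr* in the Tfrchi class, with the call lost without male library 2 (-1.40, adjusted p = 0.0684). The same gave -2.62 to 0.09 for *Igha* in duct-like cells, -5.08 to 0.15 for *Igkc* in the Tfrchi class and -0.16 to 0.11 for *Pigr* in free RNA, each turned without male library 1.

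Without the library term, which pairs both arms of a library (the replicate block), *Igkc* lost its call in immune-like cells (2.85), was not called at 3.74 in free RNA, and *Pigr* was at 0.03 in free RNA. *Igkc* in lymphoid-like against myeloid-like cells ranged from 0.23 to 5.03 with each library left out, called without the female library (5.03) and, with no filter on low counts, at 1.75. In free RNA *Igkc* ranged from 1.82 to 4.61, losing its call without either male library (1.86 and 1.82) and with DESeq2 (3.54), which put *Pigr* at 0.45. With uncalled barcodes of 500 UMIs or more, *Pigr* was at 1.25, *Igha* at -1.93, *Igkc* at -2.36, *Jchain* at -1.43 and *Mzb1* at -1.54. Without immunoglobulin-rich barcodes *Jchain* was at 0.33 in epithelial-like cells and 0.91 in the Tfrchi class, and *Igha* at 0.59 in duct-like cells. With tear-product and mitochondrial UMIs out of the total, *Pigr* was at 1109, 46.9, 185, 50.2 and 48.2 CPM in acinar-like, duct-like, Ltf+-like, MEC-like and fibroblast-like cells. On total UMIs, 671 were higher and 11376 lower in epithelial-like cells (3261 and 3946 with TMM), 137 and 11331 in acinar-like (2741 and 3071), 10057 and 231 in duct-like (1793 and 2389), 5400 and 125 in Ltf+-like (720 and 906), 8970 and 225 in MEC-like (1517 and 1899) and 5435 and 23 in Tfrchi cells (1024 and 1805). With high mitochondrial share they were 7955 and 73 (1933 and 2141), and in immune-like cells 1621 and 4248 (2747 and 2813). In Car6hi-like cells 206 were higher and 11 lower, with 3 to 435 and 0 to 144 under the alternatives, and in free RNA 17 and 67, with 1 to 3896 and 0 to 4416. With a library left out, the higher and lower calls were 1970 to 3768 and 2767 to 4389 in epithelial-like, 1351 to 3087 and 1641 to 3242 in acinar-like, 396 to 1884 and 448 to 2009 in Ltf+-like, 987 to 2038 and 1104 to 2345 in MEC-like, 64 to 304 and 11 to 50 in Car6hi-like and 485 to 912 and 997 to 1374 in Tfrchi cells. They were 851 to 1532 and 1635 to 2063 with high mitochondrial share, 603 to 1026 and 883 to 1344 in lymphoid-like cells (1087 and 1425) and 4 to 17 and 13 to 106 in free RNA. Apart from the scaling and the construction of the alternatives, the cause was not tested. With 3 UMIs or fewer of *Mzb1* per library in the epithelium, depth allowed no level there.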

Other observations

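*Ly6d*, a surface protein of B-lineage cells, had a UMI in 20 of the 22 immunoglobulin-rich barcodes, with 267 UMIs in all. *Tnfrsf13b* was found in 10 of them. Called barcodes with 2 or more UMIs of *Ms4a1* and *Cd79a* numbered 5, 1 and 0 (female, male 1, male 2).

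*Jchain* and *Mzb1* are also known from plasmacytoid dendritic cells. Barcodes with 2 or more UMIs of *Siglech*, a marker of those cells, numbered 20, 3 and 6, and they held 0, 0 and 0 UMIs of *Jchain* and 2, 0 and 1 of *Mzb1*.

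Of all barcodes, called or not, the immunoglobulin-rich ones held 92.2, 64.8 and 60.2% of the *Igkc* UMIs and 82.8, 71.0 and 77.5% of those of *Igha*.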
